A study of Mus musculus with 10 samples.

Results

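Carcinogen-induced liver tumours of mice lacking the mixed-lineage kinase MLK3 were set against liver of untreated MLK3-knockout mice. The comparison took 5 of the 10 samples of the study, 3 tumours of knockout mice (KO tumours) and 2 livers of knockout mice (KO livers), and every gene with counts. KO tumours came from male MLK3-KO mice of the C57BL/6 strain that had been injected once, in the peritoneum, with diethylnitrosamine (DEN) at 5 µg per g of body weight at 2 weeks of age. From 1 week later they drank water with 0.05% PB, a name that the labels do not spell out and that is used here for phenobarbital, until they were killed at 11 months of age. KO livers came from MLK3-KO mice of the same strain, sex and age that drank plain water. The KO allele is in both groups, and the labels do not say which exons it removes or whether it is confined to a cell type. WT tumours (3) and WT livers (2), from wild-type mice given the same treatments, were used to share the estimate of spread and, where stated, to test whether a change differed with genotype. All tumours came from treated mice and all livers from untreated ones, so being a tumour and having received DEN and PB cannot be told apart. The labels name the treated samples as tumour tissue, the extraction protocol speaks of liver of treated mice, and how tumours were cut out is not stated.

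MLK3, encoded by Map3k11, is a MAP kinase kinase kinase that phosphorylates the kinases directly above JNK, a stress kinase whose targets include the AP-1 transcription factors. DEN is activated by cytochrome P450 enzymes of pericentral hepatocytes to a DNA-alkylating agent, and mice injected in infancy develop hepatocellular tumours. Phenobarbital promotes such tumours through CAR, a nuclear receptor that switches on drug-metabolising enzymes, among which the Cyp2b genes are the textbook targets in mouse liver. Rodent liver tumours commonly re-express genes of the fetal liver such as Afp, Gpc3 and H19, and lose functions of the mature hepatocyte, including its zonation along the lobule and its sex-specific gene expression.

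The Cyp2b genes of chromosome 7 are shown by their promoters because Cyp2b9 had the smallest p of all genes and Cyp2b10 had nearly no counts in KO livers. The sequences are RefSeq entries on the plus strand of GRCm38.p6, 250 bases before to 50 bases after the start of the gene. They lie at chr7:26173159-26173458 for Cyp2b9, chr7:25897408-25897707 for Cyp2b10 and chr7:26061245-26061544 for Cyp2b13, a close copy of Cyp2b9. Capitals mark AGGTCA, the half-site bound by nuclear receptors as a class.
Cyp2b9: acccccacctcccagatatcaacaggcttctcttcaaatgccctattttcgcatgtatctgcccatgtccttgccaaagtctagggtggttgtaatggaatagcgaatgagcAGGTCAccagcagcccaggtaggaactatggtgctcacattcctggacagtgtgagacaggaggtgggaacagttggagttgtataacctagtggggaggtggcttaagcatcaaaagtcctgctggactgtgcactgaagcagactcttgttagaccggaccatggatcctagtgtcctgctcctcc
Cyp2b10: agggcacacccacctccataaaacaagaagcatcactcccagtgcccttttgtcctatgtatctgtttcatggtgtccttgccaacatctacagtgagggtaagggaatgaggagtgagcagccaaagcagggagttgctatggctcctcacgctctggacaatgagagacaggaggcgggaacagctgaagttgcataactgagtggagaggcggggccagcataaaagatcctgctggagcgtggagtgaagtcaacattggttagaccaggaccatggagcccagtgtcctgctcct
Cyp2b13: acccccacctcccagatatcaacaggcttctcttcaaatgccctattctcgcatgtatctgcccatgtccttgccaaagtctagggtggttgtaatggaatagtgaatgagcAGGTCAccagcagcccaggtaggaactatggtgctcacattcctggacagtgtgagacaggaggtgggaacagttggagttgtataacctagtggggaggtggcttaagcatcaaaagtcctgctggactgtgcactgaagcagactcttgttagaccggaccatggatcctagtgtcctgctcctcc
Of the 300 positions, 298 were identical between Cyp2b9 and Cyp2b13. Both hold AGGTCA once, 138 bases before the start, and this window of Cyp2b10 does not hold it. Sequence farther from the start was not searched, so a window without AGGTCA says nothing of sites elsewhere. Among 32851 promoters of the same length in the table, 16.3% hold AGGTCA on either strand. No match to TGTTTAC (3.65% of promoters), TGANTCA (7.81%) or TATAAA (13.6%) was found in these 3 windows on either strand. A match is a description of letters and not a bound site, and matches of different motifs did not overlap here.

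Libraries were made by 3′ tag sequencing of messenger RNA, in which a read comes from near the 3′ end of a transcript, and held 12408749, 14465995 and 13244775 counts in KO tumours 1, 2 and 3, against 18081487 and 15645620 counts in KO livers 1 and 2. Levels are given as CPM, counts scaled to library size, after TMM scaling, and 3 counts, the limit for a gene without any, correspond to 0.172 to 0.231 CPM in these 5 libraries. The defining hepatocyte markers were abundant in every library, with Alb between 21397 and 26413 CPM in KO tumours and at 25331 and 28908 CPM in KO livers. Map3k11, the targeted gene, had 130, 147 and 81 counts in KO tumours, against 94 and 82 counts in KO livers, and 3′ tags cannot show whether an upstream exon is missing. KO tumour 2 was the tumour nearest to the KO livers. Its root mean square distance to KO livers 1 and 2 was 0.846 and 0.872 on the log2(CPM + 1) scale, below the 0.955 between the 2 KO livers, whereas KO tumour 1 lay at 1.01 and 1.04 and KO tumour 3 at 0.954 and 0.988, of which only the 0.954 was below the distance between the livers. Among the tumours, KO tumour 2 lay at 0.873 from KO tumour 1 and at 0.797 from KO tumour 3, on this scale nearer to KO tumour 3 than to either liver, and KO tumours 1 and 3 lay at 0.734 from each other. The order depended on the measure. By chi-square per degree of freedom of the counts, KO tumour 2 was nearer to KO livers 1 and 2 (53.6 and 60.2) than to KO tumours 1 and 3 (94.9 and 73.4). The share of normal liver in the tumour samples was not measured, and in bulk RNA fewer cells of a type and less RNA per cell cannot be told apart.

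KO tumours differed from KO livers in 12 genes, all higher in tumours, among 15811 genes tested (0.0759% of genes; edgeR adjusted p under 0.05). They were a cytochrome P450 (Cyp2b9), a pair of secreted hepatocyte proteins (Leap2 and Apoa4), genes of mitochondrial import, membrane traffic and the centrosome (Timm22, Dennd4a, Ipcef1, Chmp4c and Cep170), and Fam102b, Fam129a, Gm10800 and Gm17491. No gene passed in the lower direction (0% of genes) by edgeR or by limma voom with quality weights, while 35 did by DESeq2 (0.221% of genes) and 471 had an unadjusted edgeR p under 0.05 (2.98% of genes). In the higher direction 1049 genes had an unadjusted edgeR p under 0.05 (6.63% of genes), and in either direction 1520 had one. DESeq2 on the same genes put 348 higher (2.2% of genes), the 12 among them. Each of the 12 lay above both KO livers in every KO tumour, as did 14.3% of all genes tested. KO tumour 2 was the lowest of the 3 tumours for 11 of the 12. For 10 of the 12 both KO livers also lay below both WT livers, and for 7 of the 12 the KO tumours overlapped the WT livers. Genes called higher in KO tumours are picked partly for low KO livers, which favours the first of these positions. The share of all genes in either position was not counted, so both are descriptions. Genes in the lower direction numbered 13 (0.083% of genes) without KO tumour 2. The number of higher genes rested on single libraries. It was 3 without KO tumour 1 or without KO tumour 3, 189 (1.21% of genes) without KO tumour 2, 6, 7 and 8 without WT tumours 1, 2 and 3, 13 and 14 without KO livers 1 and 2 (4 of the 12 among them each time), 52 and 48 without WT livers 1 and 2, and 0 when the model held KO libraries alone.

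**Figure D1:**
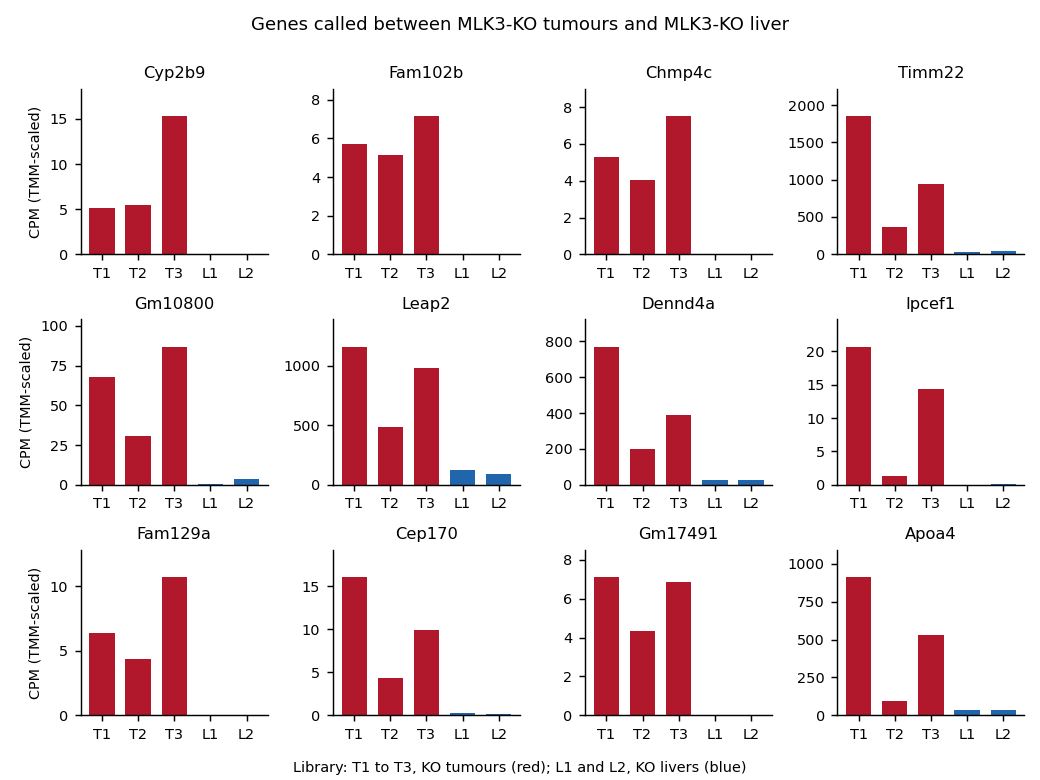
Level of the 12 genes called between KO tumours and KO livers, in TMM-scaled CPM, one bar per library and one panel per gene with its own axis from 0. KO tumours (T1 to T3, red) stand above KO livers (L1 and L2, blue) in every panel, and T2 is the lowest tumour in all panels but that of Cyp2b9.

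Among drug-metabolising genes, Cyp2b9, which encodes a steroid- and drug-hydroxylating P450 found mainly in female mouse liver, rose. Cyp2b9 (chr7:26173411-26210661) had 5.09, 5.45 and 15.3 CPM in KO tumours 1, 2 and 3, against 0 CPM in KO livers 1 and 2 (at least 44.8-fold higher, edgeR adjusted p = 0.00682; a limit of 3 counts per library stands in for 0 in all such folds). The groups did not overlap, and KO tumour 3 was the highest. Cyp2b10, the standard PB-induced P450 of mouse liver, had 91.3, 81.3 and 115 CPM in KO tumours, against 1.26 and 0 CPM in KO livers (log2 fold change 7.16 ± 1.5 (SE), edgeR adjusted p = 0.102). In counts this was 1184, 1165 and 1589 reads in KO tumours, against 22 and 0 reads in KO livers, so all 3 tumours were alike, KO tumour 2 included. The adjusted p of Cyp2b10 was 0.0129 without WT liver 1 and 0.0131 without WT liver 2, and it also passed without a filter on low counts, while in the other settings it lay between 0.0509 and 0.405. Cyp2c29, a further PB-responsive P450 that was picked out after its values were seen, had 1829.9, 2845 and 2424 CPM in KO tumours, against 911 and 1084 CPM in KO livers (log2 fold change 1.25 ± 0.37 (SE), edgeR adjusted p = 0.253). Here KO tumour 2 was the highest tumour, whereas for Cyp2b10 it was the lowest by a small margin, and in neither gene did the groups overlap. Cyp2b13 had 1.46, 0 and 4.25 CPM in KO tumours, against 0 CPM in both KO livers, and since it is a near-identical copy of Cyp2b9, the split of reads between them is uncertain.

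Of 53 listed targets of CAR and PXR, the xenobiotic receptors of hepatocytes, 46 were tested. Cyp2b9 was the only one that passed by edgeR, 4 passed by DESeq2 (2.2% of all genes were higher by it), and 9 lay above and 3 below both KO livers in all tumours, where 14.3% and 12.4% of all genes did. Their median log2 fold change was 0.33, against 0.06 over all tested genes. On the log2(CPM + 1) scale the median of the list was -0.06, 0.45 and 0.36 in KO tumours 1, 2 and 3, so that here KO tumour 2 was the highest. Cyp2a4, a testosterone hydroxylase of female liver, had 378, 91.1 and 544 CPM in KO tumours, against 53.5 and 113 CPM in KO livers (log2 fold change 2.02 ± 0.55 (SE), edgeR adjusted p = 0.196). Gsta1, a glutathione transferase, had 159, 25 and 92.4 CPM in KO tumours, against 5.55 and 26.2 CPM in KO livers (edgeR adjusted p = 0.257). Both overlapped the livers through KO tumour 2. In the NRF2 list, the oxidative stress program, 0 of 31 tested members passed by edgeR, 3 were higher by DESeq2 (2.2% of all genes), 6 had an unadjusted p under 0.05 in the higher direction (6.63% of all genes), and the median was 0.13. Its member Cbr3, a carbonyl reductase, had 22.2, 0.698 and 15.2 CPM in KO tumours, against 0.286 and 0.142 CPM in KO livers (log2 fold change 5.8 ± 1.3 (SE), edgeR adjusted p = 0.124).

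Both secreted proteins that rose are products of mature hepatocytes. Leap2 (chr11:53422181-53423170), a peptide hormone of liver and gut that blocks the ghrelin receptor, had 1157, 482 and 982 CPM in KO tumours, against 126 and 86.7 CPM in KO livers (log2 fold change 3.04 ± 0.46 (SE), edgeR adjusted p = 0.0207). Apoa4 (chr9:46240696-46243459), an apolipoprotein of triglyceride-rich particles, had 910.2, 93.9 and 530.2 CPM in KO tumours, against 35.3 and 35.1 CPM in KO livers (log2 fold change 3.86 ± 0.66 (SE), edgeR adjusted p = 0.045). KO tumour 2 was 482 CPM for Leap2, well above the livers, but 93.9 CPM for Apoa4, far nearer to them than the 910.2 CPM of KO tumour 1. These 2 were the only members that passed among 55 tested secreted hepatocyte proteins, whose median log2 fold change was -0.20. Below both KO livers in every tumour lay 24 of the 55, where 12.4% of all genes did so, and above them 5, where 14.3% did. Serpina1e, an alpha-1-antitrypsin gene, had 6522, 4457 and 4631 CPM in KO tumours, against 12929.8 and 11323 CPM in KO livers (log2 fold change -1.22 ± 0.31 (SE), edgeR adjusted p = 0.172). Hamp, which encodes the iron hormone hepcidin, had 233, 507 and 229 CPM in KO tumours, against 615 and 776 CPM in KO livers (log2 fold change -1.11 ± 0.44 (SE), edgeR adjusted p = 0.436). In neither gene did a tumour reach a liver. Fgf21, a fasting and stress hormone of the liver, had 2.39, 2.16 and 1.66 CPM in KO tumours, against 0 CPM in both KO livers (at least 10.8-fold higher, edgeR adjusted p = 0.0788), above the livers in all tumours and with an adjusted p that missed the threshold. Alb had a log2 fold change of -0.22 ± 0.22 (SE) and edgeR adjusted p of 0.788.

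The remaining called genes act inside the cell. Timm22 (chr11:76406952-76416292), the channel subunit that inserts carrier proteins into the inner mitochondrial membrane, had 1847, 368 and 944 CPM in KO tumours, against 32.4 and 50.6 CPM in KO livers (log2 fold change 4.66 ± 0.69 (SE), edgeR adjusted p = 0.0207). Dennd4a (chr9:64811340-64919667), which activates Rab GTPases of vesicle traffic, had 769, 199 and 388 CPM in KO tumours, against 26.5 and 25.6 CPM in KO livers (log2 fold change 4.12 ± 0.62 (SE), edgeR adjusted p = 0.0207). In both genes the lowest tumour was several times the highest liver, and tumours differed among themselves by a wide margin. Their levels went together, with the same order of KO tumours, WT tumours and WT livers, though not of KO livers. In WT tumours Timm22 had 361, 1046 and 937 CPM and Dennd4a 157, 447 and 424 CPM. In WT livers Timm22 had 219 and 559 CPM and Dennd4a 86.9 and 232 CPM. These calls may thus not be separate changes, and why they went together was not tested. Cep170 (chr1:176733653-176814067), a protein of the mother centriole, had 16, 4.4 and 9.95 CPM in KO tumours, against 0.286 and 0.212 CPM in KO livers (log2 fold change 5.29 ± 0.85 (SE), edgeR adjusted p = 0.0268). Chmp4c (chr3:10366907-10428856), an ESCRT-III subunit that severs membranes and times the last step of cell division, had 5.32, 4.05 and 7.5 CPM in KO tumours, against 0 CPM in both KO livers (at least 29.3-fold higher, edgeR adjusted p = 0.0103). KO tumour 3 was the highest. Ipcef1 (chr10:6885796-7052478), a partner of the cytohesin exchange factors, had 20.7, 1.4 and 14.3 CPM in KO tumours, against 0 and 0.0708 CPM in KO livers. It had 487 counts over KO tumours and 1 over KO livers, a ratio of 374 with an exact 95% interval of 66.8 to 14792 that covers counting error only (edgeR adjusted p = 0.0268).

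Fam102b (chr3:108970997-109027607) had 5.7, 5.17 and 7.14 CPM in KO tumours, against 0 CPM in both KO livers (at least 31.3-fold higher, edgeR adjusted p = 0.0103). Fam129a (chr1:151571186-151721939), a stress-induced gene also called Niban1, had 6.4, 4.4 and 10.7 CPM in KO tumours, against 0 CPM in both KO livers (at least 37.3-fold higher, edgeR adjusted p = 0.0268). Neither gene had a single read in a KO liver, and in both KO tumour 3 was the highest. The predicted genes Gm10800 (chr2:98666547-98667301) and Gm17491 (chr8:22480291-22483332) were also called. Gm10800 had 68.1, 30.8 and 86.7 CPM in KO tumours, against 0.286 and 3.9 CPM in KO livers (log2 fold change 4.92 ± 0.74 (SE), edgeR adjusted p = 0.0207), and Gm17491 had 7.09, 4.33 and 6.85 CPM in KO tumours, against 0 CPM in both KO livers (at least 31.7-fold higher, edgeR adjusted p = 0.0337). How reads that match several places were counted was not stated, so predicted genes with copies elsewhere are uncertain. Cyp2b9, Chmp4c, Ipcef1, Fam129a and Apoa4 also rose in WT tumours against WT livers (5 of 12, where 3.64% of genes did). For Fam102b, Timm22, Gm10800, Leap2 and Gm17491 the change in KO exceeded that in WT by the test of the difference (5 of 12, where 1.22% of genes did). The 12 were picked by their KO change, which is part of that difference, so this share was favoured by the choice and is no independent result. In each of these 5 both KO livers lay below both WT livers, and the KO tumours overlapped the WT livers, positions that were not counted over all genes. Timm22 had 361, 1046 and 937 CPM in WT tumours, against 219 and 559 CPM in WT livers. Gm10800 had 65.9, 65.3 and 68.1 CPM in WT tumours, against 28.7 and 49.6 CPM in WT livers. Fam102b had 18.5, 20.0 and 11.9 CPM in WT tumours, against 5.28 and 3.41 CPM in WT livers. The difference between KO livers and WT livers was not tested here. Gm17491 had 6.25, 8.37 and 5.58 CPM in WT tumours, against 2.45 and 8.96 CPM in WT livers, and Leap2 had 122, 259 and 125 CPM in WT tumours, against 264 and 525 CPM in WT livers. For Leap2 the change in WT was -1.23 ± 0.40 and the difference 4.27 ± 0.60 (log2, SE; edgeR adjusted p = 0.00143).

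Of the 15 increases with the smallest p among genes at 10 CPM or more whose libraries did not overlap, 6 were called and 9 had edgeR adjusted p between 0.0505 and 0.0828. All 9 passed by DESeq2, by which 2.2% of all genes were higher. They were picked by their edgeR p on the same counts, so this was favoured by the choice and is no independent support. Klrb1b, an inhibitory receptor of natural killer cells, had 25.1, 0.908 and 12.7 CPM in KO tumours, against 0 CPM in both KO livers (at least 67.2-fold higher, edgeR adjusted p = 0.0505). Dusp5, a phosphatase that is induced by and switches off ERK, had 34.8, 1.47 and 7.07 CPM in KO tumours, against 0.0572 and 0.0708 CPM in KO livers (edgeR adjusted p = 0.0546), 570 counts in tumours against 2 in livers, a ratio of 219 with an exact 95% interval of 60.3 to 1810.4. For both genes KO tumour 2 was near the livers and KO tumour 1 the highest. Exoc3l4, related to the exocyst, had 30.9, 5.24 and 8.87 CPM in KO tumours, against 0 and 0.142 CPM in KO livers (edgeR adjusted p = 0.0564). Arl5c, a small GTPase, had 159.8, 17.6 and 42.5 CPM in KO tumours, against 5.15 and 3.4 CPM in KO livers (edgeR adjusted p = 0.0788). Ocstamp, which takes part in the fusion of macrophage-lineage cells, had 33.9, 1.47 and 18.2 CPM in KO tumours, against 0 and 0.354 CPM in KO livers (edgeR adjusted p = 0.0759). Ifi27l2b, an interferon-induced gene, had 31.4, 6.56 and 33.4 CPM in KO tumours, against 0 and 1.98 CPM in KO livers (edgeR adjusted p = 0.0828). Among these, tumour 2 was above both livers by a small margin in Ocstamp and a larger one in Exoc3l4 and Arl5c. Ndufb4, a subunit of respiratory complex I, had 104, 59.8 and 86.2 CPM in KO tumours, against 19.6 and 30.5 CPM in KO livers (log2 fold change 1.73 ± 0.34 (SE), edgeR adjusted p = 0.0788). Tcim, a growth-associated regulator, had 41.3, 20.3 and 35.8 CPM in KO tumours, against 8.58 and 6.23 CPM in KO livers (log2 fold change 2.13 ± 0.40 (SE), edgeR adjusted p = 0.0703). In both of these KO tumour 2 was again the lowest tumour.

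Genes that mark liver tumours or fetal liver separated KO tumours 1 and 3 from KO tumour 2. Afp, the fetal serum protein used as a tumour marker, had 446, 3.84 and 169 CPM in KO tumours, against 6.35 and 0.283 CPM in KO livers. Gpc3, a cell-surface proteoglycan of fetal and malignant liver, had 46.9, 0.489 and 48.9 CPM in KO tumours, against 0 and 4.96 CPM in KO livers. In both genes KO tumour 2 lay between the livers, so the groups overlapped, and neither passed (edgeR adjusted p = 0.154 for Afp and 0.344 for Gpc3). Akr1c18, a hydroxysteroid dehydrogenase, had 74.8, 1.68 and 122 CPM in KO tumours, against 0 and 0.567 CPM in KO livers (edgeR adjusted p = 0.0618). Tspan8, a tetraspanin, had 77.3, 0.349 and 83.1 CPM in KO tumours, against 0.0572 and 0.992 CPM in KO livers (edgeR adjusted p = 0.135). Golm1, a Golgi membrane protein raised in liver disease, had 8.56, 4.96 and 14.3 CPM in KO tumours, against 0 and 0.637 CPM in KO livers (edgeR adjusted p = 0.115), and so was above the livers in KO tumour 2 as well. H19, the imprinted fetal RNA, which was picked out after its values were seen, had 1995, 0.419 and 13.6 CPM in KO tumours, against 0 and 0.637 CPM in KO livers (edgeR adjusted p = 0.182) and was by far the highest in KO tumour 1. Scd2, a fatty acid desaturase of fetal liver, had 214, 7.4 and 115 CPM in KO tumours, against 12 and 13.9 CPM in KO livers (edgeR adjusted p = 0.192). The edgeR adjusted p of Afp was 0.437, 0.00323 and 0.422 without KO tumours 1, 2 and 3, and that of Gpc3 was 0.711, 0.0252 and 0.688. KO tumour 2 was the tumour with low levels of these genes, so the p without it is a description and no test of a rise.

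**Figure D2:**
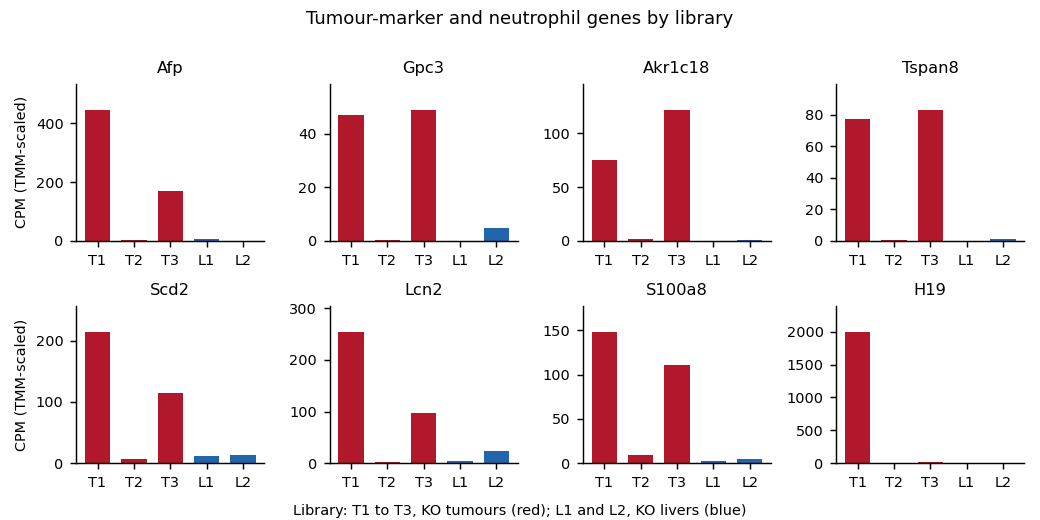
Level in TMM-scaled CPM of tumour-marker genes and of the neutrophil gene S100a8, one bar per library and one panel per gene with its own axis from 0. KO tumours 1 and 3 (T1, T3) stand above KO livers (L1 and L2, blue) in every panel, in H19 with T1 far above T3, and KO tumour 2 (T2) is near the livers.

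Of 43 tested genes of the tumour and fetal list, 0 passed by edgeR with all libraries (21 had an unadjusted p under 0.05, where 6.63% of genes did), 13 passed by DESeq2 (2.2% of genes did) and 16 without KO tumour 2 (1.21%), all higher, and 9 lay above and 2 below both livers in every tumour (14.3% and 12.4% of genes). The median log2 fold change of the list was 2.14, against 0.06 over all tested genes. By tumour, its median on the log2(CPM + 1) scale was 2.34, 0.00 and 0.86 in KO tumours 1, 2 and 3. Summed over the list, levels were 6993, 2507 and 4209 CPM in KO tumours, against 3485 and 3093 CPM in KO livers, so that KO tumour 2 was below both livers. In WT tumours the median log2 fold change of the list was 3.95 and 18 members rose (3.64% of genes did). Of the cell cycle list, 0 of 52 tested members passed by edgeR, 7 had an unadjusted p under 0.05 in the higher direction (6.63% of genes did), and the median was 0.60, or 0.58, -0.01 and 0.54 in KO tumours 1, 2 and 3. Top2a, a topoisomerase of dividing cells, had 15.9, 0.977 and 10.2 CPM in KO tumours, against 0.229 and 0.921 CPM in KO livers (edgeR adjusted p = 0.269). Cdkn2b, an inhibitor of CDK4 and CDK6, had 9.09, 0 and 7.93 CPM in KO tumours, against 0 and 0.0708 CPM in KO livers (edgeR adjusted p = 0.194). Among p53 targets, 0 of 30 passed, 1 passed by DESeq2, 9 had an unadjusted p under 0.05 in the higher and 1 in the lower direction (6.63% and 2.98% of all genes did), and 13 lay above and 3 below both livers in every tumour (14.3% and 12.4% of all genes did). The median was 0.62. Trp53inp1, a stress-induced p53 cofactor, had 39.4, 30.4 and 62.7 CPM in KO tumours, against 21.9 and 18.3 CPM in KO livers (edgeR adjusted p = 0.275). Pmaip1, the death gene Noxa, had 3.62, 1.68 and 1.01 CPM in KO tumours, against 0 CPM in both KO livers (edgeR adjusted p = 0.27).

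**Figure D3:**
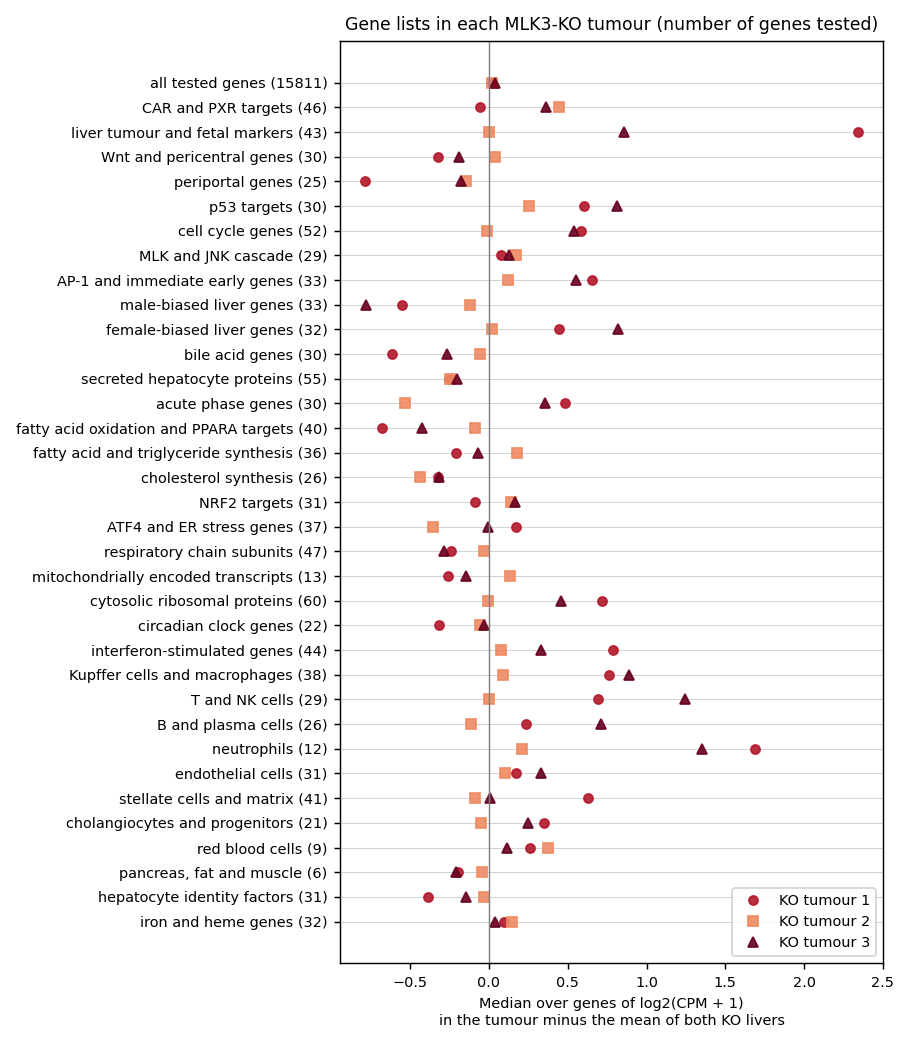
Median, over the tested members of each gene list, of log2(CPM + 1) in a KO tumour minus the mean of both KO livers, with one symbol per tumour and the number of tested members in parentheses. For the tumour and fetal list KO tumour 1 lies at 2.34 and KO tumour 2 at 0.00, while for CAR and PXR targets and cholesterol synthesis KO tumour 2 (squares) is farthest from 0.

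No decrease passed by edgeR. Of those with the smallest p, 14 are given here, which lay below both KO livers in every tumour, with log2 fold changes between -1.56 and -0.80 and edgeR adjusted p between 0.102 and 0.197. By DESeq2 all 14 passed (0.221% of all genes were lower by it), and without KO tumour 2 Gpat4, Scand1, Tmem25 and Gldc did (0.083%). The 14 were picked by their edgeR p on the same counts, so these passes were favoured by the choice and are no independent support. Gpat4, an acyltransferase that starts triglyceride and phospholipid synthesis, had 103, 138 and 120.1 CPM in KO tumours, against 253 and 229.8 CPM in KO livers (log2 fold change -1.0 ± 0.21 (SE), edgeR adjusted p = 0.102). Msmo1, a demethylase of the cholesterol pathway, had 434, 384 and 334 CPM in KO tumours, against 782 and 747 CPM in KO livers (log2 fold change -0.99 ± 0.26 (SE), edgeR adjusted p = 0.184). Amacr, a racemase of bile acid and branched-chain fatty acid breakdown, had 141, 154 and 135 CPM in KO tumours, against 236 and 261 CPM in KO livers (log2 fold change -0.80 ± 0.20 (SE), edgeR adjusted p = 0.172). In each of these the 3 tumours lay close together, KO tumour 2 among them. Gldc, of the glycine cleavage system, had 53.1, 70.8 and 54 CPM in KO tumours, against 103 and 123 CPM in KO livers (log2 fold change -0.93 ± 0.23 (SE), edgeR adjusted p = 0.154). Trap1, the mitochondrial HSP90, had 28.7, 28 and 31.7 CPM in KO tumours, against 60.6 and 67.1 CPM in KO livers (log2 fold change -1.12 ± 0.24 (SE), edgeR adjusted p = 0.118). Slc25a22, a mitochondrial glutamate carrier, had 41.5, 49.4 and 60.7 CPM in KO tumours, against 94.6 and 120.3 CPM in KO livers (edgeR adjusted p = 0.135). The tumours of Trap1 were all at about the same level. Hspb8, a small heat shock protein, had 288, 277 and 302 CPM in KO tumours, against 632 and 668 CPM in KO livers (log2 fold change -1.17 ± 0.31 (SE), edgeR adjusted p = 0.187). Ppp1r3b, which directs a phosphatase to glycogen, had 144, 115 and 109 CPM in KO tumours, against 322 and 200.4 CPM in KO livers (edgeR adjusted p = 0.184). The others were Scand1, Tmem25, Ido2 of tryptophan breakdown, Serpina1e, the nucleoside transporter Slc29a1 and Card6, with log2 fold changes of -1.17, -1.22, -1.05, -1.22, -0.89 and -1.56 in that order.

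**Figure D4:**
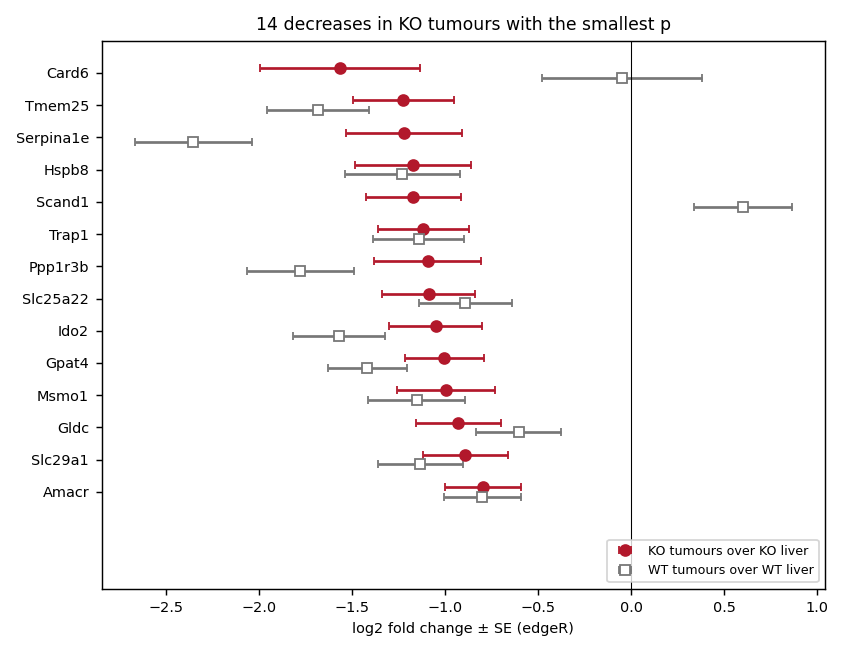
Log2 fold change with its standard error for 14 decreases of smallest p, KO tumours over KO livers (filled circles) and WT tumours over WT livers (open squares). All KO values lie between -1.56 and -0.80, and the WT value of Scand1 lies above 0.

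In WT tumours 11 of these 14 genes fell, where 4.7% of genes did. Scand1 was the one whose change differed with genotype. It had 23.7, 29.5 and 21 CPM in KO tumours, against 47.7 and 63.7 CPM in KO livers and a log2 fold change of -1.17 ± 0.26 in KO and 0.60 ± 0.26 in WT (difference -1.77 ± 0.37, SE, edgeR adjusted p = 0.023). In the cholesterol synthesis list 0 of 26 members passed by edgeR, 1 by DESeq2 (Msmo1), and 15 lay below both livers in every tumour, where 12.4% of all genes did. Their list had a median log2 fold change of -0.38. The medians were -0.32, -0.44 and -0.32 in KO tumours 1, 2 and 3, so KO tumour 2 was the lowest. Mvd, a decarboxylase of the pathway, had 77.8, 52.1 and 54.8 CPM in KO tumours, against 123 and 107 CPM in KO livers (edgeR adjusted p = 0.27). Hsd17b7 had 129, 143 and 126 CPM in KO tumours, against 201 and 207 CPM in KO livers (edgeR adjusted p = 0.319). Both were lower in every tumour than in either liver. In the fatty acid oxidation and PPARA list 0 of 40 tested members passed, 5 had an unadjusted p under 0.05 in the lower direction (2.98% of all genes did), 15 lay below both livers (12.4%), and the median was -0.39. Acot1, a PPARA-driven acyl-CoA thioesterase, had 6.63, 15 and 13.6 CPM in KO tumours, against 33.1 and 33.9 CPM in KO livers (edgeR adjusted p = 0.327). Cpt2, which takes acyl groups into mitochondria, had 86.1, 108 and 104 CPM in KO tumours, against 140.2 and 157 CPM in KO livers (edgeR adjusted p = 0.402). In the fatty acid and triglyceride synthesis list 0 of 36 passed, and 4 had an unadjusted p under 0.05 in the higher and 1 in the lower direction (6.63% and 2.98% of all genes did). The median was 0.08, a sign that turned without KO tumour 2 (-0.04) and under limma voom with quality weights.

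Among zonated and sex-biased genes, many of which fell in WT tumours, KO tumours had 2 called genes, Apoa4 and Cyp2b9. Glul, the glutamine synthetase of the innermost pericentral hepatocytes, had 783, 932 and 779.6 CPM in KO tumours, against 907 and 1088 CPM in KO livers. Its change was -0.26 ± 0.28 in KO and -3.85 ± 0.29 in WT (log2, SE), a difference of 3.59 ± 0.41 (edgeR adjusted p = 0.000202). Among 30 Wnt-dependent and pericentral genes 0 passed in KO, and 2 had an unadjusted p under 0.05 in the higher and 1 in the lower direction (6.63% and 2.98% of all genes did). The median log2 fold change was -0.14 in KO and -2.23 in WT. Between genotypes 9 differed, all with the KO change above the WT change, as did 1.22% of all genes. Without KO tumour 1 the KO median was slightly above 0. Gulo, of ascorbate synthesis, had 644, 902 and 666 CPM in KO tumours, against 1347 and 1220.2 CPM in KO livers (log2 fold change -0.80 ± 0.22 (SE), edgeR adjusted p = 0.208). Ctnnb1, which encodes beta-catenin, had 10.9, 11.9 and 17 CPM in KO tumours, against 5.43 and 1.27 CPM in KO livers (edgeR adjusted p = 0.339). Of 25 tested periportal genes Apoa4 was the only one that passed, the median was -0.29 in KO and -0.87 in WT, and 6 lay below both livers (12.4% of all genes did). Cyp2f2, a periportal P450, had 622, 1073 and 611 CPM in KO tumours, against 1045 and 1333 CPM in KO livers, and its change differed by 3.91 ± 0.38 between genotypes (edgeR adjusted p = 4.85e-05).

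Male-biased genes had the largest median difference between genotypes of the 34 lists, 5.23 on the log2 scale. In KO 0 of 33 tested members passed by edgeR, 7 had an unadjusted p under 0.05 in the lower direction (2.98% of all genes did), and 16 lay below and 3 above both KO livers (12.4% and 14.3% of all genes did). The median log2 fold change was -0.48. In WT the median was -5.7, 27 members fell (4.7% of all genes did), and in 22 the KO change was above the WT change (1.22%). Mup16, a major urinary protein gene, had 3758, 3376 and 3033 CPM in KO tumours, against 2632 and 2987 CPM in KO livers. Elovl3, a fatty acid elongase of male liver, had 79.5, 192 and 142 CPM in KO tumours, against 191 and 160.4 CPM in KO livers. Cyp4a12b, a male-specific P450, had 60.2, 78.8 and 46.1 CPM in KO tumours, against 68 and 69.7 CPM in KO livers. Mup16 was a little above the livers in every tumour, and in the other 2 genes the tumours overlapped the livers, with KO tumours 1 and 3 below them. Mup7 had 22.7, 53.3 and 27.1 CPM in KO tumours, against 75.1 and 115 CPM in KO livers (log2 fold change -1.47 ± 0.43 (SE), edgeR adjusted p = 0.244) and Susd4 20.8, 32.5 and 21.8 CPM in KO tumours, against 49.2 and 54.3 CPM in KO livers (edgeR adjusted p = 0.341), with every tumour below every liver and KO tumour 2 the highest tumour. Reads of Mup genes are shared among near-identical copies, so single members are uncertain. All Mup genes together took 7.48%, 8.51% and 5.38% of counts in KO tumours, against 8.46% and 10.9% in KO livers. Of 32 tested female-biased genes Cyp2b9 alone passed, with a median of 0.82 in KO, or 0.45, 0.02 and 0.82 in KO tumours 1, 2 and 3, and 1.67 in WT. Sult2a5, a female-biased sulfotransferase, had 4.24, 0 and 12.7 CPM in KO tumours, against 0 and 0.0708 CPM in KO livers (edgeR adjusted p = 0.191), and KO tumour 2 had no read of it.

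Over all genes, the change in KO exceeded that in WT for 193 (1.22% of genes) and was below it for 58 (0.367%). Of the 193, 184 had fallen in WT (4.7% of all genes did), and of the 58, 56 had risen in WT (3.64% of all genes did). The WT change is part of the difference, so this overlap was favoured by the way the genes were picked. The number below was 33 without KO liver 2 or KO tumour 3, 31 and 34 without WT tumours 2 and 3, and the number above stayed between 138 and 215 when each library was left out. KO and WT comparisons share no library. Across the 15811 genes, which are not independent replicates, the log2 fold changes in KO and WT had a Pearson r of 0.225 and a Spearman rho of 0.238. Of 1318 genes called in WT, 80.3% had the same sign in KO, as did 59% of all genes. For 80% the KO change either had the opposite sign or was less than 50% of the WT change. These genes were picked by their WT change, which favours a smaller change in KO.

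**Figure D5:**
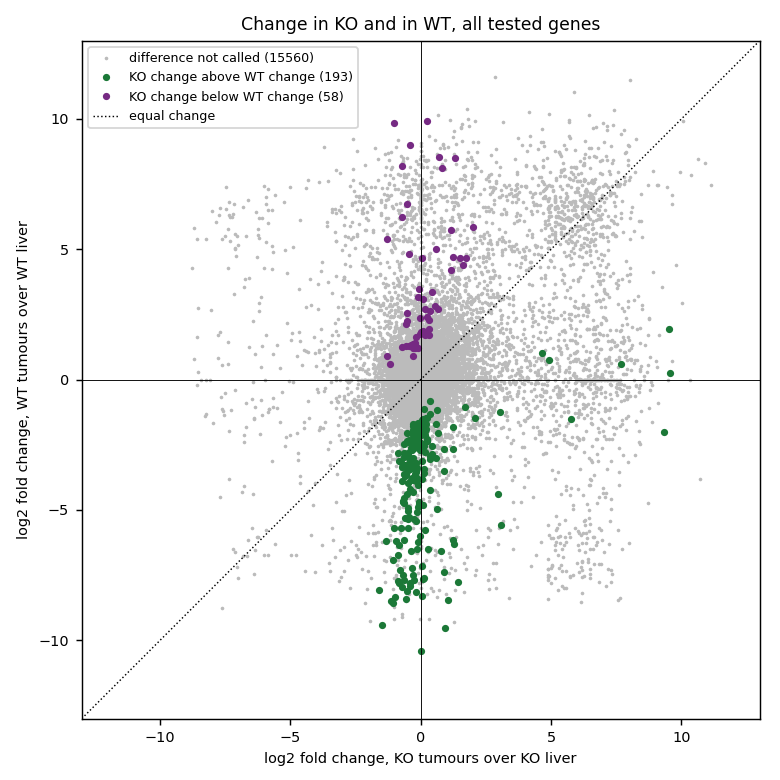
Log2 fold change of tumour over liver in KO (x axis) and in WT (y axis) for 15811 genes, with genes whose changes differed by the edgeR interaction test in colour. The 193 genes with the KO change above the WT change (green) lie mostly at a KO change near 0 and a WT change below 0, and the 58 in the opposite direction (purple) at a WT change above 0.

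Other hepatocyte lists had 1 called gene, Leap2. Of 30 tested bile acid genes 0 passed, and 1 had an unadjusted p under 0.05 in the higher and 1 in the lower direction (6.63% and 2.98% of all genes did). Below both livers lay 10 (12.4% of all genes did), and the median was -0.31. Slc27a5, which activates bile acids, had 339.9, 581 and 454 CPM in KO tumours, against 639 and 640.0 CPM in KO livers (edgeR adjusted p = 0.525). Of 31 hepatocyte identity factors 0 passed, 3 had an unadjusted p under 0.05 in the lower direction (2.98% of all genes did), 7 lay below both livers (12.4% of all genes did), and the median was -0.25. Prox1, a homeobox factor of hepatocytes, had 185, 173 and 193 CPM in KO tumours, against 395 and 283 CPM in KO livers (edgeR adjusted p = 0.269). Foxa3 had 178, 139 and 144 CPM in KO tumours, against 285 and 263 CPM in KO livers (edgeR adjusted p = 0.34). Rxra, the common partner of CAR, PXR and PPARA, had 209, 206 and 189 CPM in KO tumours, against 329 and 288 CPM in KO livers (log2 fold change -0.61 ± 0.19 (SE), edgeR adjusted p = 0.28). All 3 factors were lower in every tumour than in either liver. Leap2 was the only gene called among 32 tested iron and heme genes, whose median was 0.09, and Blvrb, a biliverdin reductase, had 146, 134 and 145 CPM in KO tumours, against 90.2 and 87.8 CPM in KO livers (edgeR adjusted p = 0.341). Among acute phase genes 0 of 30 were called, and 5 had an unadjusted p under 0.05 in the higher and 1 in the lower direction (6.63% and 2.98% of all genes did). Their median was 0.15, or 0.48, -0.54 and 0.35 in KO tumours 1, 2 and 3, and its sign turned without KO tumour 1, without KO liver 1 and with the replicate block. Lcn2, an iron-binding acute phase protein, had 254, 3.21 and 97.1 CPM in KO tumours, against 5.09 and 24.4 CPM in KO livers. Cd14 had 9.94, 0.838 and 9.73 CPM in KO tumours, against 0 and 0.283 CPM in KO livers (edgeR adjusted p = 0.388 and 0.113).

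Among respiratory chain subunits 0 of 47 were called, and 4 had an unadjusted p under 0.05 in the higher and 3 in the lower direction (6.63% and 2.98% of all genes did). Their median was -0.17, with 20 below and 8 above both livers, where 12.4% and 14.3% of all genes lay. Atp5e, of ATP synthase, had 1167, 421 and 990.5 CPM in KO tumours, against 339.7 and 296 CPM in KO livers (edgeR adjusted p = 0.197). Cox7b, of complex IV, had 353, 261 and 324 CPM in KO tumours, against 218 and 207 CPM in KO livers (edgeR adjusted p = 0.445). Among mitochondrially encoded transcripts 0 of 13 were called, and 2 had an unadjusted p under 0.05 in the higher and 2 in the lower direction, where 6.63% and 2.98% of all genes had one. Their median was -0.11, with mt-Atp8 at 334, 171 and 266 CPM in KO tumours, against 65.9 and 112 CPM in KO livers (log2 fold change 1.53 ± 0.32 (SE), edgeR adjusted p = 0.1) and mt-Nd2 at 6373, 8890.2 and 8030.0 CPM in KO tumours, against 9748 and 13685 CPM in KO livers (log2 fold change -0.59 ± 0.23 (SE), edgeR adjusted p = 0.402). The list thus held genes on both sides of the livers. Cytosolic ribosomal proteins (0 of 60 called, 17 with an unadjusted p under 0.05 in the higher direction, where 6.63% of all genes had one, and 4 called by DESeq2, where 2.2% were) had a median of 0.49, with 17 above and 3 below both livers, where 14.3% and 12.4% of all genes lay. Rpl34 had 330.3, 118 and 319.5 CPM in KO tumours, against 66.6 and 79.8 CPM in KO livers (log2 fold change 1.81 ± 0.39 (SE), edgeR adjusted p = 0.115) and Rps14 507, 214 and 489.7 CPM in KO tumours, against 146 and 143 CPM in KO livers (log2 fold change 1.48 ± 0.35 (SE), edgeR adjusted p = 0.148), high in KO tumours 1 and 3. Ribosomal protein genes have many processed copies, among which reads may be split. Short transcripts had higher medians in the same tumours. Among 235 protein-coding genes with a longest transcript up to 800 bases and 10 CPM or more in one group, the median on the log2(CPM + 1) scale was 0.29, 0.06 and 0.25 in KO tumours 1, 2 and 3, and among 3891 genes over 3000 bases it was -0.11, 0.04 and -0.05. The part of transcript length in the ribosomal values was not tested.

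The neutrophil, T and NK cell, macrophage and B cell lists had higher sums in KO tumours 1 and 3 than in KO tumour 2, and none had a gene called by edgeR. Summed neutrophil markers were 473, 30.3 and 262 CPM in KO tumours, against 24 and 41.7 CPM in KO livers. S100a8, a calcium-binding protein of neutrophils, had 148, 9.22 and 110.3 CPM in KO tumours, against 2.8 and 4.39 CPM in KO livers (log2 fold change 4.63 ± 0.95 (SE), edgeR adjusted p = 0.0884). S100a9 had 45.2, 6.77 and 29.9 CPM in KO tumours, against 4.98 and 6.87 CPM in KO livers (edgeR adjusted p = 0.341). Ly6g, the marker of mature neutrophils, had 3 counts in KO tumour 2 and 0 in the other 4 libraries. Of 12 tested neutrophil genes 0 passed, 3 had an unadjusted p under 0.05 in the higher direction (6.63% of all genes did), and the median was 1.96. Summed T and NK cell markers were 75.9, 32.3 and 129 CPM in KO tumours, against 31.7 and 43.6 CPM in KO livers. Their median log2 fold change over 29 tested genes was 3.71, or 1.46 with the 13 genes that were at 0 in one group set at their bound. Trbc2, a T cell receptor constant region, had 3.85, 2.37 and 13.3 CPM in KO tumours, against 0 CPM in both KO livers (at least 33.8-fold higher, edgeR adjusted p = 0.118). Trac, the constant region of the alpha chain of that receptor, had 4.01, 0.628 and 5.26 CPM in KO tumours, against 3.78 and 2.05 CPM in KO livers, so that the groups overlapped. Gzma, of cytotoxic granules, had 6.47, 0.419 and 1.51 CPM in KO tumours, against 0 CPM in both KO livers (edgeR adjusted p = 0.34). Cd3e had 0, 0 and 39 counts in KO tumours, against 0 and 5 counts in KO livers, so nearly all Cd3e reads came from KO tumour 3.

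Summed Kupffer cell and macrophage markers were 2072, 1524 and 2269 CPM in KO tumours, against 1228 and 1647 CPM in KO livers. Of these genes 0 of 38 were called, 8 had an unadjusted p under 0.05 in the higher direction (6.63% of all genes did), and the median was 0.64. H2-Aa, an MHC class II chain, had 93.7, 38.7 and 76.6 CPM in KO tumours, against 39.4 and 23.8 CPM in KO livers (edgeR adjusted p = 0.314). Gpnmb, of lipid-laden macrophages, had 5.16, 1.05 and 1.23 CPM in KO tumours, against 0.172 and 0.142 CPM in KO livers (edgeR adjusted p = 0.212). Cd9 had 21, 8.66 and 28.8 CPM in KO tumours, against 9.5 and 1.84 CPM in KO livers (edgeR adjusted p = 0.318). The Kupffer cell gene Clec4f was at 30.2, 30.6 and 62.2 CPM in KO tumours, against 43.1 and 68.3 CPM in KO livers, so that the groups overlapped. Vsig4 (63, 64.5 and 86.8 CPM, against 41.1 and 54) and Cd5l (294, 280 and 344 CPM, against 137 and 239) were above both livers in all tumours. C1qa and Adgre1 overlapped the livers through KO tumour 2. Of the 38 genes 9 lay above and 0 below both livers in every tumour, where 14.3% and 12.4% of all genes did. Summed B and plasma cell markers were 716, 518 and 831 CPM in KO tumours, against 634 and 653 CPM in KO livers. Of 26 tested 0 were called, 3 had an unadjusted p under 0.05 in the higher direction (6.63% of all genes did), and the median was 0.92. Igha, the heavy chain of IgA, had 56.9, 2.16 and 168 CPM in KO tumours, against 3.38 and 3.4 CPM in KO livers (edgeR adjusted p = 0.244). Iglc1, a light chain, had 3.24, 0.419 and 21.6 CPM in KO tumours, against 0 and 0.0708 CPM in KO livers (edgeR adjusted p = 0.263). Cd22 had 0.848, 0.489 and 3.97 CPM in KO tumours, against 0 CPM in both KO livers (edgeR adjusted p = 0.436). The IgM heavy chain Ighm had 13.6, 41.3 and 15.1 CPM in KO tumours, against 26.9 and 23.1 CPM in KO livers, below both livers in KO tumours 1 and 3 and above them in KO tumour 2. Cd79a, of the B cell receptor, had 0, 0.0698 and 0 CPM in KO tumours, against 1.14 and 0 CPM in KO livers. Of the 26 genes 3 lay above and 3 below both livers in every tumour, where 14.3% and 12.4% of all genes did. Interferon-stimulated genes (0 of 44 called, 2 by DESeq2, 12 with an unadjusted p under 0.05 in the higher direction, where 6.63% of all genes had one) had a median of 0.47, and 13 lay above both livers (14.3% of all genes did). Ifi27 had 228, 158 and 207 CPM in KO tumours, against 73.5 and 113 CPM in KO livers (log2 fold change 1.08 ± 0.26 (SE), edgeR adjusted p = 0.148). Isg15 had 56.1, 25.2 and 26.7 CPM in KO tumours, against 5.32 and 19.9 CPM in KO livers (edgeR adjusted p = 0.34). Ifit2 had 2.16, 2.16 and 1.15 CPM in KO tumours, against 0 CPM in both KO livers (at least 9.5-fold higher, edgeR adjusted p = 0.321). The part of immune cells in these values was not tested.

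Of 31 tested endothelial genes 0 were called, 3 had an unadjusted p under 0.05 in the higher direction (6.63% of all genes did), and the median was 0.15. They summed to 783, 731 and 855 CPM in KO tumours, against 752 and 699 CPM in KO livers. Esm1, a tip-cell proteoglycan, had 23.1, 11.3 and 19.3 CPM in KO tumours, against 6.46 and 2.05 CPM in KO livers (log2 fold change 2.06 ± 0.53 (SE), edgeR adjusted p = 0.172). Flt4, the receptor of lymphatic growth factors, had 14.3, 16.5 and 10.0 CPM in KO tumours, against 6.18 and 1.77 CPM in KO livers (edgeR adjusted p = 0.244). Cdh5 had 32.5, 24.1 and 38.5 CPM in KO tumours, against 18.8 and 12.7 CPM in KO livers (edgeR adjusted p = 0.518). These 3, the members of smallest p, were above both livers in all tumours. Of the 31 genes 6 lay above and 1 below both livers in every tumour, where 14.3% and 12.4% of all genes did. Of the other defining markers Pecam1 was above both livers. Stab2 (36.5, 31.5 and 40.9 CPM, against 37.2 and 28 in KO livers) and Clec4g (67.5, 42.4 and 52.2 CPM, against 63.4 and 53.5) overlapped them. Of 41 stellate cell and matrix genes 0 were called, and 3 had an unadjusted p under 0.05 in the higher and 1 in the lower direction (6.63% and 2.98% of all genes did). Their median was 0.33, and -0.06 without KO tumour 1. They summed to 2052, 1488 and 1757 CPM in KO tumours, against 1402 and 1485 CPM in KO livers. Fn1, fibronectin, had 979, 826 and 915 CPM in KO tumours, against 567 and 695 CPM in KO livers (edgeR adjusted p = 0.416). Vim had 38.7, 10.3 and 25.2 CPM in KO tumours, against 12.8 and 6.73 CPM in KO livers (edgeR adjusted p = 0.453). Ecm1 had 22.2, 29.7 and 31.7 CPM in KO tumours, against 49 and 44.9 CPM in KO livers (edgeR adjusted p = 0.413). Col1a1 had 35.8, 5.24 and 4.11 CPM in KO tumours, against 3.66 and 5.60 CPM in KO livers, and was thus highest in KO tumour 1, with the other tumours near the livers. Of 21 tested cholangiocyte and progenitor genes 0 were called, 5 had an unadjusted p under 0.05 in the higher direction (6.63% of all genes did), and the median was 0.33. They summed to 974, 378 and 804 CPM in KO tumours, against 372 and 435 CPM in KO livers, while the defining Krt19 had 0 to 3 counts in each library. Tstd1 had 271, 60.2 and 282 CPM in KO tumours, against 67 and 56.5 CPM in KO livers (edgeR adjusted p = 0.224). Of 9 tested red blood cell genes 0 passed and 2 had an unadjusted p under 0.05 in the higher direction (6.63% of all genes did), with Hbb-bs at 1599, 1431 and 1462 CPM in KO tumours, against 637 and 556 CPM in KO livers (log2 fold change 1.33 ± 0.27 (SE), edgeR adjusted p = 0.0844) and Hbb-bt at 371, 391 and 373 CPM in KO tumours, against 170.3 and 193 CPM in KO livers (edgeR adjusted p = 0.182). The alpha globin Hba-a1 had 1395, 2705 and 1432 CPM in KO tumours, against 2014 and 1654 CPM in KO livers, so that the groups overlapped and KO tumour 2 was the highest. The median of the list was 0.01, and -0.16 without KO tumour 2. Of 22 pancreas, fat and muscle genes 6 were tested, and 0 passed or had an unadjusted p under 0.05. The pancreatic Prss2 was at 0 in all 5 libraries, but the other defining pancreatic marker, Cela1, was not. It had 81.8, 55.2 and 79.5 CPM in KO tumours, against 75.5 and 64.9 CPM in KO livers, and the groups overlapped. Car3, which hepatocytes also express, had 2589, 7944 and 2932 CPM in KO tumours, against 8988 and 8163 CPM in KO livers (edgeR adjusted p = 0.592).

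The pathway of the deleted kinase had no called gene, as was so for 29 of the 34 lists. Of 29 tested genes of the MLK and JNK cascade 0 passed by edgeR, DESeq2 or without KO tumour 2. Of all genes 0.0759% passed by edgeR, so a list of this size would seldom hold one. By DESeq2 2.2% of all genes were higher and 0.221% lower, and without KO tumour 2 1.21% and 0.083% were. In the list 0 had an unadjusted p under 0.05, where 6.63% of all genes had one in the higher and 2.98% in the lower direction. The median log2 fold change of the list was 0.17, or 0.08, 0.17 and 0.13 in KO tumours 1, 2 and 3. Map3k10, which encodes MLK2, had 5.78, 4.05 and 8.44 CPM in KO tumours, against 1.09 and 3.33 CPM in KO livers (edgeR adjusted p = 0.798). Map3k21, which encodes MLK4, had 2.54, 4.61 and 4.61 CPM in KO tumours, against 2.06 and 4.6 CPM in KO livers (edgeR adjusted p = 0.977). Map3k9, which encodes MLK1, had no read in these 5 libraries and was not tested. Map3k11 itself averaged 8.71 ± 2.49 CPM in KO tumours (SD, n = 3) and 5.59 ± 0.305 CPM in KO livers (SD, n = 2) (log2 fold change 0.64 ± 0.54 (SE), edgeR adjusted p = 0.728). Mapk14, the p38 alpha kinase, had 37, 32.1 and 29.7 CPM in KO tumours, against 38.6 and 72 CPM in KO livers. Map2k2 had 75.7, 98.5 and 83.3 CPM in KO tumours, against 119 and 120.1 CPM in KO livers, with tumours below livers in both (edgeR adjusted p = 0.55 and 0.528). Map4k1, an upstream kinase of blood cells, had 0.154, 0.349 and 2.24 CPM in KO tumours, against 0 CPM in both KO livers (edgeR adjusted p = 0.55). In the AP-1 and immediate early list 0 of 33 tested genes passed by edgeR, 2 by DESeq2, 6 had an unadjusted p under 0.05 in the higher direction (6.63% of all genes did), and the median was 0.43, or 0.65, 0.12 and 0.55 in KO tumours 1, 2 and 3. Atf3, a stress-induced AP-1 factor, had 2.85, 0.279 and 2.96 CPM in KO tumours, against 0 CPM in both KO livers (at least 10.6-fold higher, edgeR adjusted p = 0.172). Maff had 7.63, 3.56 and 11.8 CPM in KO tumours, against 2.63 and 1.98 CPM in KO livers (edgeR adjusted p = 0.357). Above both livers in all tumours lay 9 genes of this list and below them 0, where 14.3% and 12.4% of all genes did. Of 37 ATF4 and ER stress genes 0 were called, and 6 had an unadjusted p under 0.05 in the higher and 1 in the lower direction (6.63% and 2.98% of all genes did), with a median of 0.04. They included Slc7a11, a cystine transporter, at 46.8, 0.0698 and 0.577 CPM in KO tumours, against 0 CPM in both KO livers, and Psat1, of serine synthesis, at 41.7, 0.0698 and 4.18 CPM in KO tumours, against 0 and 0.708 CPM in KO livers, both high in KO tumour 1. The median was -0.10 without KO tumour 1 and just below 0 without KO tumour 3 or KO liver 1. Clock genes (0 of 22 called, 1 with an unadjusted p under 0.05 in the higher direction, where 6.63% of all genes had one) had a median of -0.15, which turned to 0.05 without KO liver 1. Bhlhe40, a repressor of the clock, had 121, 136 and 119 CPM in KO tumours, against 55.6 and 78.9 CPM in KO livers (log2 fold change 0.90 ± 0.23 (SE), edgeR adjusted p = 0.172).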

How the data were processed

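Genes, lists and comparisons were chosen with earlier results of these data known. The authors deposited 1 table of raw counts by gene for the 10 libraries. Its columns carry the identifiers given in the sample descriptions, and all were used. BWA, featureCounts and mm10 are named in the submitters' processing notes. Their versions and settings were not given in the sources used here. Per the labels' protocols, QuantSeq 3′ libraries that keep strand were made, with no mention of molecular identifiers, so intervals and limits cover counting error only. Replicates are biological ones, per the series text.

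Symbols matched 38872 of 39056 identifiers, and positions are those of GENCODE M21 (GRCm38). Genes kept by filterByExpr (15811) were scaled by TMM and fitted in 1 quasi-likelihood model with a mean per group over all 10 libraries (edgeR 4.0.16, R 4.3.3), with Benjamini-Hochberg adjustment over all of them. The common coefficient of variation was 71.8%. Standard errors were derived from the F statistics. The fit was tested on simulated counts. Alternatives were DESeq2 1.42.0, limma 3.58.1 voom with quality weights, RLE factors, library totals, other filters, KO libraries alone, a replicate block and leaving out each library. KO libraries were no duplicates of each other, with chi-square per degree of freedom of 39.8 or more.

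Genes named are every called gene with a symbol, the 15 increases and 15 decreases of smallest p with 10 CPM or more and groups apart, 3 per list of smallest p (34 lists), the MLK genes, Cyp2b genes, Afp, Gpc3, Glul and Alb, and 8 per direction of the interaction, and not all of these 151 genes are printed. One of the 15 decreases is not reported here. Cyp2c29, H19, Cd63, Ephx2, Hpd and Ly6d were added after their values were seen. RefSeq promoters are those of GRCm38.p6.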

Additional observations from a re-analysis of the deposited data

Results flagged for a closer look

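For 36 named genes the change of tumours over liver in KO differed from that in WT by the edgeR test of the difference. All values here are the log2 change in KO minus that in WT. Each was picked because it passed, so their number is no result in itself. Among genes that stood higher in KO tumours than in KO livers, the difference was 4.27 for Leap2, 3.66 for Timm22, 4.16 for Gm10800, 9.3 for Gm17491, 7.57 for Fam102b and 7.07 for Exoc3l4. Fam102b and Gm17491 had no read in KO livers, so their values depend on the prior count and are no bound. Leap2, Timm22, Gm10800, Gm17491 and Fam102b were lower in both KO livers than in both WT livers. Among male-biased genes, which fell in WT tumours, it was 7.95 for Mup7, 7.18 for Mup9, 6.76 for Mup16, 6.48 for Mup6, 4.55 for Mup21, 6.87 for Elovl3, 6.35 for Cyp4a12b and 5.87 for Susd4. Among enzymes, zonated genes and a further Mup gene, which also fell in WT tumours, it was 7.82 for Mup10, 5.25 for Car3, 4.79 for Sult2a8, 3.91 for Cyp2f2, 3.91 for Cyp2c29, 3.59 for Glul, 2.18 for Ephx2 and 1.95 for Hpd.

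In the other direction, genes that rose in WT tumours had differences of -9.43 for Krt23, -8.92 for Hbegf, -4.6 for Smox, -3.82 for Cyp2a4, -3.51 for Unc5b, -3.29 for A2ml1, -3.18 for Il1rn, -2.94 for Tstd1, -2.78 for Lpl and -2.29 for Tent5a. Hbegf had 3.55, 1.33 and 2.81 CPM in KO tumours, against 5.38 and 3.12 CPM in KO livers, and Krt23 had 3.78, 0.768 and 0.577 CPM in KO tumours, against 2.86 and 1.7 CPM in KO livers, so both were low in all 5 KO libraries. Further differences were -2.98 for Per3, -1.77 for Scand1, -1.68 for F11r and -1.43 for Alb, and of these 4 genes all but Scand1 rose in WT tumours. Lpl, lipoprotein lipase, had 185, 45.5 and 100.3 CPM in KO tumours, against 39.4 and 32.1 CPM in KO livers, and Il1rn, the interleukin 1 receptor antagonist, 41.5, 6.14 and 25.7 CPM in KO tumours, against 8.7 and 8.57 CPM in KO livers, with KO tumour 2 near or below the livers in each, and neither passed between KO tumours and KO livers (edgeR adjusted p = 0.172 and 0.34). The cause of these differences was not tested.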

How the results depend on the processing

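The count of genes higher in KO tumours was 12. It was 348 with DESeq2, 342 without a filter on low counts, 22 with library totals, 1 with a filter at 10 CPM (7 of the 12 were tested there), 1 with limma voom with quality weights and 0 with KO libraries alone. It was 11 with RLE factors (all among the 12), 11 with the replicate block (9 among the 12), and 3 to 189 when each library was left out. The count of genes lower was 0, and was 35 with DESeq2, 44 without a filter and 0 to 13 when each library was left out. For a KO change above the WT change (193 genes), DESeq2 gave 432, no filter 432 and leaving out each library 138 to 215. For one below it (58 genes), DESeq2 gave 222, no filter 203, limma voom 32 and leaving out each library 31 to 72. The cause of these shifts was not tested.

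Replicate numbers are shared between groups, but same-numbered libraries did not deviate together (correlations over genes of 0.010 and 0.017 for the KO tumour and KO liver pairs). With 2 KO livers, whose deviations from their mean mirror each other, this check cannot exclude a pairing. No pairing was used in the main fit. The replicate block cost Apoa4, Gm17491 and Ipcef1 their calls, and it gave 203 and 52 genes for the KO change above and below the WT change. No single library decided Cyp2b9, Chmp4c or Fam102b, which were called whichever library was left out. They lost the call with limma voom with quality weights, where Leap2 alone kept it, and with KO libraries alone. All other called genes lost the call without KO tumour 1 or 3.

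Signs turned for 10 genes, none of them called in KO. Log2 fold changes were 0.013 (Sult2a8), 0.038 (A2ml1) and 0.11 (Unc5b) with library totals, 0.0090 (Unc5b) with the filter at 10 CPM, 0.075 (Unc5b) with limma voom, and 0.015 (Cyp4a12b), 0.071 (A2ml1), -0.094 (Per3) and 0.14 (Unc5b) with the replicate block. With each library left out they ranged from -2.24 to 7.19 (Npas2, lowest without KO tumour 1), -2.48 to 0.33 (Acta1, highest without KO liver 1), -0.77 to 0.41 (Mup9, highest without KO liver 2), -1.75 to 0.0050 (Krt23, highest without KO liver 1), -0.37 to 0.014 (Cyp4a12b, highest without KO tumour 3), -0.31 to 0.12 (A2ml1), -0.083 to 0.31 (Per3), -0.23 to 0.93 (Map3k21, lowest without KO liver 1) and -0.36 to 0.35 (Unc5b). Library totals moved the median of all genes to 0.19 and leaving out KO liver 2 moved it to 0.16, against 0.06. Library totals turned the median of mitochondrially encoded transcripts to 0.03. Depth limits genes under about 1 CPM, where KO livers often had no read.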

Other observations

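Leaving out KO tumour 2 gave 189 genes higher (1.21% of genes) and 13 lower (0.083%) among 15658 tested. Of these 202 genes, 107 (53%) were also called in WT tumours in the same direction, where 3.64% of all genes were called higher and 4.7% lower in WT. Cd63, a tetraspanin of late endosomes, and Ly6d, a surface protein of lymphoid and epithelial cells, were picked out after their values were seen. Cd63 had 288, 40.4 and 306 CPM in KO tumours, against 31.1 and 41.7 CPM in KO livers (edgeR adjusted p = 0.135 with all libraries), and Ly6d had 304, 4.26 and 255 CPM in KO tumours, against 10.8 and 1.35 CPM in KO livers (edgeR adjusted p = 0.171 with all libraries). In both, KO tumour 2 was within or near the range of the livers, so that a test without it would be no independent support. The 13 that were lower included Ephx2, the soluble epoxide hydrolase, at 276, 569 and 323 CPM in KO tumours, against 585 and 623 CPM in KO livers (edgeR adjusted p = 0.453 with all libraries), and Hpd, of tyrosine breakdown, at 260.0, 602 and 405 CPM in KO tumours, against 694 and 839 CPM in KO livers (edgeR adjusted p = 0.331 with all libraries). Both enzymes were highest in KO tumour 2 among the tumours.

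Genes of drug metabolism did not order the 3 KO tumours in one way. Cyp2c29 and the median of the CAR and PXR list were highest in KO tumour 2, whereas Cyp2a4, Gsta1, Cyp2b13 and, by a small margin, Cyp2b10 were lowest in it, as were Afp, Gpc3, Akr1c18 and Tspan8. With 1 library per tumour, these orders have no replicate check.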
